A study of Mus musculus with 2 samples.

Results

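Imprinted genes are genes of which a cell normally uses only the copy inherited from the mother or only the copy inherited from the father. A list of 44 mouse imprinted genes was followed by symbol in the RNA of NE4C cells, and 41 of them had a row in a table of 16803 genes. Dlk1, Mirg and Slc38a4 were not analysed here. NE4C is an established mouse neural stem cell line, derived from the brain vesicles of p53-deficient embryos. The study compared 1 library of normally cultured NE4C (control) with 1 library of NE4C treated with homocysteine thiolactone (HTL, written HTL treatment below), a reactive cyclic form of homocysteine that can attach to lysines of proteins. The labels give no dose and no duration. Both libraries came from the same line, so the p53-deficient background was shared.

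In textbook terms, the choice of copy is set in the germ line by DNA methylation at a control region of each cluster, and is then kept through cell division by DNA methyltransferases and by zinc finger proteins that recognise the methylated copy. Many of the genes act on fetal growth, placenta and brain. Within a cluster, genes of opposite parental copies often lie side by side, and a long non-coding RNA from one copy can silence its neighbours. Each gene is given below with the copy that is usually used, which is background knowledge. The table holds 1 value per gene and library, so which copy was read in NE4C was not measured.

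The rounded estimated counts summed to 10350665 reads (control) and 9102076 reads (HTL treatment). Neural stem cell markers were present, such as Nes with 1617 and 1365 reads and Sox2 with 894 and 285 reads (control and HTL treatment, the order used throughout), while Fabp7 had 2 and 2. Of the 8 stem cell markers tested, Sox2 (log2 ratio -1.46) and Vim (-1.01, from 1487 to 648 reads) were called lower, by the rule given below. Of 7 neuron markers Dcx (-1.40, from 88 to 29 reads) was, and of 6 mesenchyme markers Pdgfrb (from 112 to 46 reads). Over all genes tested 7.98% were called lower. By the adjusted p of that rule alone, 3 stem cell markers were lower and 1 higher, Prom1 (443 and 555 reads). Of the neuron markers 1 was lower and 2 higher, Tubb3 (log2 ratio 0.60, 296 and 396 reads) and Stmn2 (0.57, 309 and 403 reads). Of 8 glia markers 5 had a row, and the astrocyte marker Gfap had 2 and 0 reads. Summed glia markers gave 18.9 and 21.1 CPM (reads scaled to library size), mesenchyme markers 21.5 and 18.1 CPM, blood and vessel markers 6.18 and 4.07 CPM and neuron markers 91.3 and 110.0 CPM, against 599.0 and 466.0 CPM for neural stem cell markers. The part of other cell types in the results below was not tested. In RNA of a whole culture, fewer cells that use a gene and less RNA per cell cannot be told apart.

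Together the 41 genes took 38919 reads, or 0.376%, of the control library and 29961 reads, or 0.329%, of the HTL treatment library. Levels per transcript length spread over more than 4 orders of magnitude, in FPKM (fragments scaled to transcript length and library size). Snrpn, a core protein of splicing particles that is read from the paternal copy, was at 406.75 and 327.72 FPKM. Gnas, whose main product couples hormone receptors to cyclic AMP, was at 366.27 and 512.15 FPKM. These were the highest levels of the list in both libraries, with Snrpn first in the control and Gnas first in the HTL treatment library. The next in the control library were Mest at 68.26, Peg10 at 61.01, Peg3 at 45.95 and Commd1 at 45.8 FPKM.

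**Figure D1:**
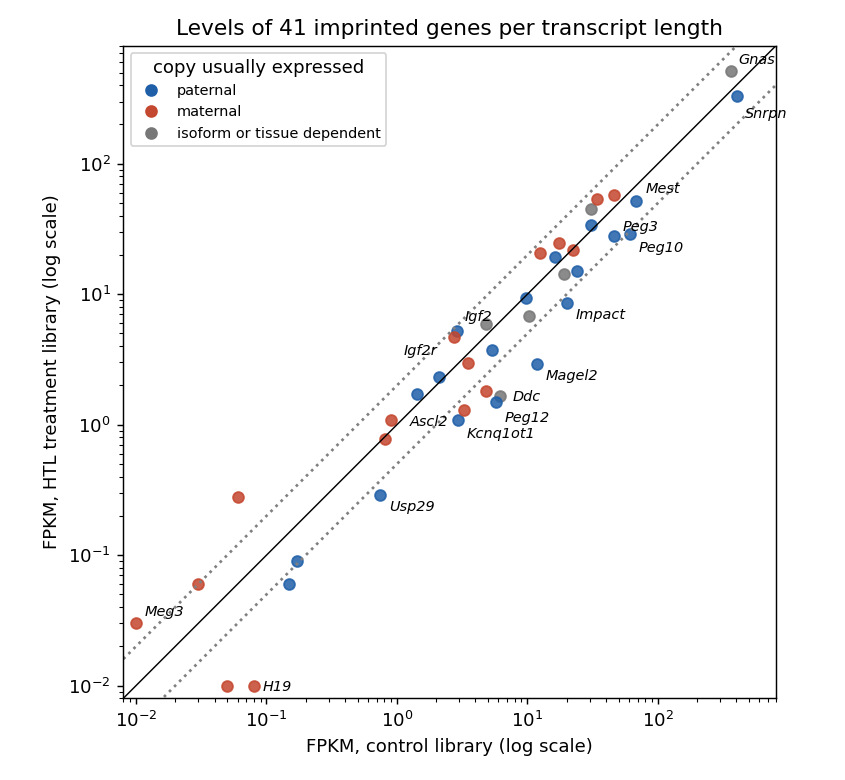
Level of each of the 41 imprinted genes in the control library (x axis) and the HTL treatment library (y axis), both in FPKM on log scales, coloured by the copy usually expressed. The solid line marks equal levels and the dotted lines a ratio of 2 either way. Snrpn and Gnas stand at the top, Magel2, Ddc and Peg12 lie below the lower dotted line, and the genes at the bottom left have 4 reads or fewer in each library, where 0 reads are plotted at the lowest value of the table, 0.01 FPKM.

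The test was run on 34 of the 44 genes, those whose reads in the pair of libraries came to 10 or more. The other 7 with a row were at or near 0. H19, the maternal non-coding RNA next to Igf2, had 2 and 0 reads, and Meg3 and Rian, maternal non-coding RNAs of the cluster that also holds Dlk1, had 1 and 3 and 1 and 2 reads. Airn, the paternal antisense RNA of Igf2r, had 2 and 1 reads, the maternal zinc finger gene Zim1 2 and 0, the paternal gene Nap1l5 3 and 1, and the maternal transporter gene Slc22a18 1 and 4. A count of 0 in the HTL treatment library allowed up to 3 reads, or 0.33 CPM. At this depth no difference could be detected for these genes. Of the 5 non-coding RNAs with a row, only Kcnq1ot1 passed 10 reads.

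The comparison of the HTL treatment with the control library asked which imprinted genes differed in level. A gene was called when its adjusted p was at most 0.001 in a two-sided exact binomial test of its reads against the library totals and its absolute log2 ratio (HTL treatment over control) was at least 1. The test compares these 2 libraries, with no replicate, so intervals cover counting error only. Of the 34 genes tested, 9 fell and 0 rose by this rule. Over all 13442 genes tested, 10.8% were called, 7.98% as lower and 2.81% as higher, which was 1072 and 378 genes. With TMM scaling, which shifted the median of all genes from -0.14 to -0.01, all genes split into 800 lower and 552 higher and the imprinted genes into 6 lower and 0 higher. By adjusted p alone, 15 imprinted genes were lower and 7 higher, where 24.1% of all genes tested were lower and 14.5% higher. The median log2 ratio of the 34 genes was -0.16, beside -0.14 for all genes tested, a difference of -0.03.

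The 9 genes that fell were Magel2, Peg12, Ddc, Kcnq1ot1, Ppp1r9a, Usp29, Ascl2, Impact and Peg10. Magel2, Peg12, Kcnq1ot1, Usp29, Impact and Peg10 are usually read from the paternal copy, Ppp1r9a and Ascl2 from the maternal copy in some tissues such as placenta, and Ddc from the paternal copy in fetal heart and from both copies elsewhere. Of 17 paternally used genes tested 6 fell, of 11 classed as maternally used 2, and of 6 genes whose copy depends on isoform or tissue 1. The maternal class also holds genes whose maternal use is known mainly in placenta or other single tissues, so these counts rest on how the genes were classed. The median log2 ratio was -0.51 for the paternally used genes, 0.30 for the maternally used genes and -0.05 for the third group, a value that turned positive (0.08) with TMM scaling while the first and second kept their sign at -0.38 and 0.43. No test was made of the difference between these groups. The paternally used genes were also longer, with a median transcript length of 3740 bases against 1829 bases for the maternally used genes.

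**Figure D2:**
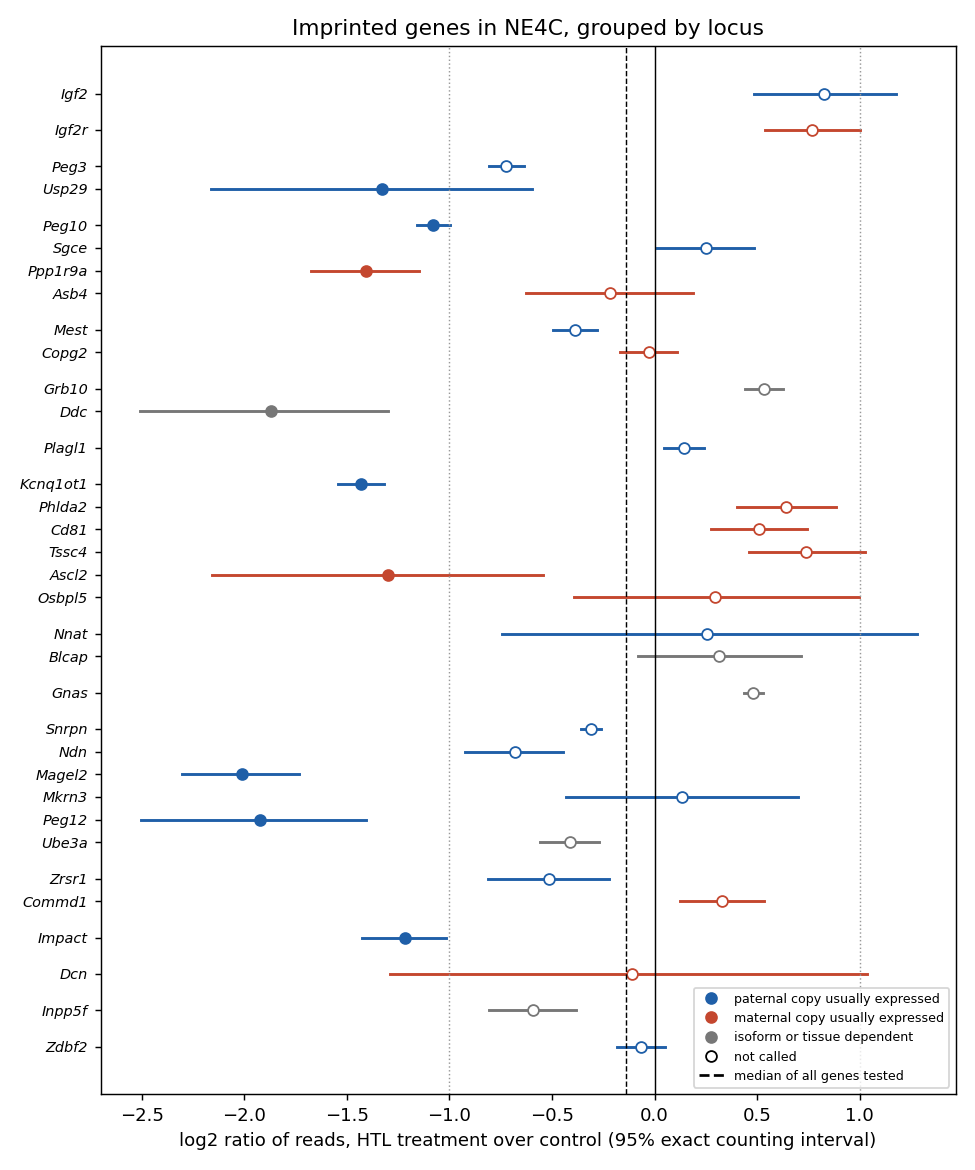
Log2 ratio of reads, HTL treatment over control, of the 34 imprinted genes tested, grouped by locus, with the 95% exact counting interval as a line. Filled points were called, dotted lines mark log2 ratios of -1 and 1 and the dashed line marks the median of all genes tested, -0.14. Magel2, Peg12 and Ddc lie farthest to the left, and no filled point lies to the right of 0.

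The domain on chromosome 7 that matches the human Prader-Willi and Angelman region held 6 of the genes. From the paternal copy come Snrpn, Ndn, Magel2, Mkrn3 and Peg12. Ube3a, the ubiquitin ligase at its end, is read from the maternal copy in neurons and from both copies in most other cells. The starts of Ndn, Magel2, Mkrn3 and Peg12 lie so close that their 4 promoter windows fit within 116734 bases. Those windows are printed because the 4 genes are neighbours of the same parental copy that had unlike ratios. Each runs 5′ to 3′ on the gene's strand, from 250 bases before to 50 bases after the start in RefSeq on GRCm38.p6, with CpG dinucleotides, the sites of DNA methylation, in capitals. Ndn is at chr7:62348027-62348326 (plus strand), Magel2 at chr7:62376729-62377028 (plus), Mkrn3 at chr7:62420104-62420403 (minus) and Peg12 at chr7:62464461-62464760 (minus).
Ndn: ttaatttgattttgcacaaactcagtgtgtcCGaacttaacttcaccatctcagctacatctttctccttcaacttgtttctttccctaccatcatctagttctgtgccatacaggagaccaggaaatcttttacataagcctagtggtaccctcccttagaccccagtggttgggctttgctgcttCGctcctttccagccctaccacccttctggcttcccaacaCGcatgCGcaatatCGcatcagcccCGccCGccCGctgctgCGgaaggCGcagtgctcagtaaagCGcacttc
Magel2: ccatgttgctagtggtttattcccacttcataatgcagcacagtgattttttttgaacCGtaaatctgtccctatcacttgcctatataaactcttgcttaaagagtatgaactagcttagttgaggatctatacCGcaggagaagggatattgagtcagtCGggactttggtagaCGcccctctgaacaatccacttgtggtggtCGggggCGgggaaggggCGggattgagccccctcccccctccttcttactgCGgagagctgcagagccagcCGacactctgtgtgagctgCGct
Mkrn3: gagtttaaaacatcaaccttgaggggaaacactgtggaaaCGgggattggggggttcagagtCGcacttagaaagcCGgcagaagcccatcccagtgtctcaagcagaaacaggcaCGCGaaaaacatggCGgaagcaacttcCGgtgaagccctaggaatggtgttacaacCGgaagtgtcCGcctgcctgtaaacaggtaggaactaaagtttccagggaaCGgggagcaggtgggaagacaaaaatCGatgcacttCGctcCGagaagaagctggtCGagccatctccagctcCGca
Peg12: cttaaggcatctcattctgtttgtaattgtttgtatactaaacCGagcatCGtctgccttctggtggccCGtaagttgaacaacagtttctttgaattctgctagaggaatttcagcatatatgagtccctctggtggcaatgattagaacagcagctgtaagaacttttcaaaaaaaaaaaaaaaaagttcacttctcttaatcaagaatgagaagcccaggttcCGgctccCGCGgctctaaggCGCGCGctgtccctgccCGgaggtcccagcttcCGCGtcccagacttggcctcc

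The windows hold 11 CpG for Ndn, 10 for Magel2, 15 for Mkrn3 and 12 for Peg12, beside a median of 7.0 over all 32851 RefSeq windows. None of the 4 holds TGCCGC, the letters recognised by the imprint-keeping zinc finger protein ZFP57 when the CpG is methylated, on either strand. These letters occur in 11.6% of all windows.

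Magel2, a MAGE family protein that works with a ubiquitin ligase on endosomes, fell from 574 to 125 reads. This was 24.8% of the control level, a log2 ratio of -2.01 (95% interval -2.30 to -1.73). Peg12, an intronless gene whose protein binds the kinase GSK3, fell from 157 to 36 reads (log2 ratio -1.93, interval -2.50 to -1.41). Between them on the chromosome, Mkrn3, a RING finger protein that restrains puberty, had 56 and 54 reads (log2 ratio 0.13, interval -0.43 to 0.70). The interval of Mkrn3 does not overlap that of either neighbour. Ndn, the MAGE protein necdin, which holds back division of neural precursors, had 409 and 224 reads. Its log2 ratio of -0.68 (-0.92 to -0.44) passed the adjusted p but not the size cutoff.

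Snrpn had 8288 and 5883 reads (log2 ratio -0.31, interval -0.36 to -0.26). Snurf, a second reading frame on the same transcript, had 685 and 1041 reads (log2 ratio 0.79, interval 0.65 to 0.93). The 2 rows come from shared sequence that RSEM has to divide, so neither value alone is certain. Summed, they gave 8973 and 6924 reads (log2 ratio -0.19, interval -0.23 to -0.14). Ube3a had 987 and 652 reads (log2 ratio -0.41, interval -0.56 to -0.27). In the domain 2 of 6 genes fell and 5 of 6 were lower by adjusted p, with Mkrn3 the exception, beside 7.98% and 24.1% of all genes tested.

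On another stretch of chromosome 7, Peg3 and Usp29 are read in opposite directions from the paternal copy. Their RefSeq promoter windows share 263 bases. The Peg3 window (GRCm38.p6, chr7:6730370-6730669, minus strand, CpG in capitals) is printed because it stands for both genes.
Peg3: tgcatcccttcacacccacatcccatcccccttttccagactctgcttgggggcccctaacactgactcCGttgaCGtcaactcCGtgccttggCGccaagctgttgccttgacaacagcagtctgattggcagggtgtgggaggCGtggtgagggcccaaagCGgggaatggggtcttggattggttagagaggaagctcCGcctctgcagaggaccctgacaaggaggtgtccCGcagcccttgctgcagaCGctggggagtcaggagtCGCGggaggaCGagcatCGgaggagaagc

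This window holds 13 CpG and no TGCCGC. Peg3, a zinc finger protein that acts in growth and maternal behaviour, had 3188 and 1699 reads (log2 ratio -0.72, interval -0.81 to -0.64). Usp29, which encodes a deubiquitinase, fell from 58 to 20 reads. Its log2 ratio was -1.33 (-2.16 to -0.60). The interval of Usp29 includes the whole interval of Peg3, so at this depth the pair could not be told apart. Usp29 shares its best protein match in the table with 1 other gene, Zim3, which had 2 and 2 reads. With TMM, median of ratios or upper quartile scaling Usp29 was no longer called.

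In the cluster on chromosome 6, Peg10 had the highest level per length of the 9 genes that fell. It spans chr6:4697306-4710514 (plus strand) in NCBIM37, the build named mm9 in the submitters' notes. Peg10, a retrotransposon-derived gene needed for the placenta, fell from 4267 to 1777 reads, 47.4% of the control level. Its log2 ratio was -1.08 (-1.16 to -0.998), so that it stands at the size cutoff and was not called with TMM, median of ratios or upper quartile scaling. Sgce, the epsilon-sarcoglycan gene that starts next to Peg10 on the other strand and is also paternal, had 288 and 301 reads (log2 ratio 0.25, interval 0.01 to 0.49). Ppp1r9a encodes neurabin, a scaffold that ties protein phosphatase 1 to actin, and spans chr6:4853004-5115661 (plus strand). It fell from 483 to 160 reads (log2 ratio -1.41, interval -1.68 to -1.15), and remained called under 8 of 8 alternative scalings, filters and read additions. Asb4, a maternally used adaptor of a ubiquitin ligase, had 119 and 90 reads (log2 ratio -0.22, interval -0.63 to 0.19).

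Kcnq1ot1 is a long paternal RNA that silences its neighbours on the same chromosome copy, which are then read from the maternal copy. It fell from 2583 to 842 reads, or from 2.94 to 1.09 FPKM. The log2 ratio was -1.43 (-1.55 to -1.32), and with the ratio of FPKM + 1 it was -0.91 and not called. The start of the RNA (GRCm38.p6, chr7:143296498-143296797, minus strand, CpG in capitals) is printed because it lies in the control region of the cluster.
Kcnq1ot1: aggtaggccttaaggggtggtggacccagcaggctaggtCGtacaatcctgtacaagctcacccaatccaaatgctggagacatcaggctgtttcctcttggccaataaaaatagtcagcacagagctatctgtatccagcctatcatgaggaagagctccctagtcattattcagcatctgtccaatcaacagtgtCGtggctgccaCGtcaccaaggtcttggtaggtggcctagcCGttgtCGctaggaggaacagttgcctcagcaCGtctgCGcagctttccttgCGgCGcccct

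The window holds 9 CpG and no TGCCGC. The Kcnq1ot1 row is 83437 bases long, the longest in the list, and its best protein match in the table is a LINE-1 reading frame, a match it shares with 1 other gene. The part that reads of repeats have in its value was not tested. Of the 5 neighbours in the list that were tested and classed as maternal, 4 had log2 ratios above 0, beside 5549 of all 13442 genes tested. Genes of the cluster outside the list were not counted. Phlda2, Cd81 and Tssc4 are short, at 737, 1534 and 1378 bases, and ratios went with length, as given below. Whether the level of Kcnq1ot1 bears on its neighbours was not tested. Phlda2, which restrains placental growth, had 252 and 346 reads (log2 ratio 0.64, interval 0.40 to 0.88). Tssc4, a factor for splicing particles, had 177 and 260 reads (log2 ratio 0.74, interval 0.46 to 1.02). Cd81, a tetraspanin of the cell surface, had 274 and 343 reads (log2 ratio 0.51, interval 0.28 to 0.74). These 3 passed the adjusted p and not the size cutoff. Osbpl5, a lipid transfer protein, had 36 and 39 reads (log2 ratio 0.30, interval -0.39 to 1.00).

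Ascl2, a basic helix-loop-helix factor of the placenta, went the other way in that cluster. It fell from 54 to 19 reads (log2 ratio -1.30, interval -2.16 to -0.54). Its Benjamini-Hochberg adjusted p was 0.000956 by the exact binomial test, just inside the cutoff, and it was not called under 5 of 7 alternatives.

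Igf2, Igf2r, Grb10 and Phlda2, grouped here by their part in growth control, were higher in the HTL treatment library. Other genes of the list act on growth or placenta as well and did not share that direction or its size. Peg3, Peg10 and Ascl2 were lower, at log2 ratios of -0.72, -1.08 and -1.30, and Plagl1 was at 0.14. Igf2, the paternal growth factor, had 116 and 181 reads (log2 ratio 0.82, interval 0.48 to 1.18). Igf2r, the maternal receptor that removes IGF2 by carrying it to lysosomes, had 259 and 388 reads (log2 ratio 0.77, interval 0.54 to 1.00). Grb10 encodes an adaptor that damps insulin and IGF1 receptor signalling, and is maternal in most tissues but paternal in neurons. It had 1646 and 2095 reads (log2 ratio 0.53, interval 0.44 to 0.63). With Phlda2, all 4 genes of that group with a row passed the adjusted p as higher, beside 14.5% of all genes tested, and none passed the size cutoff. The group was formed with earlier results of these data known, so its count cannot be weighed against that share. Igf2r was the 1 imprinted gene called higher in an alternative, when the median of genes of like length was taken off (log2 ratio 1.14).

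Ddc is the neighbour of Grb10 and encodes the decarboxylase that makes dopamine and serotonin (NCBIM37, chr11:11714104-11798047, minus strand). It fell from 126 to 30 reads, 27.4% of the control level, a log2 ratio of -1.87 (-2.51 to -1.30). Grb10 and Ddc thus had ratios of opposite sign with intervals that do not overlap. Impact encodes a protein that holds back the amino acid sensor GCN2 and is paternal in rodents. It fell from 718 to 271 reads (log2 ratio -1.22, interval -1.43 to -1.02). Magel2, Peg12, Ddc, Ppp1r9a and Impact remained called under 8 of 8 alternatives that gave a value and did not assume replicate spread. With a coefficient of variation of 0.2 between replicates assumed in edgeR's exact test, Magel2 alone was called.

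Among the other genes, Gnas had 6812 and 8360 reads (log2 ratio 0.48, interval 0.43 to 0.53). It passed the adjusted p, but its row mixes transcripts that are maternal, paternal or read from both copies, and its exons overlap 2 genes on the opposite strand. Mest, a paternal hydrolase-like protein, had 1764 and 1186 reads (log2 ratio -0.39, interval -0.49 to -0.28). Inpp5f, a lipid phosphatase with a paternal brain isoform, had 508 and 296 reads (log2 ratio -0.59, interval -0.81 to -0.38). Zrsr1, a paternal splicing factor gene within the span of Commd1, had 252 and 155 reads. Its log2 ratio of -0.51 (-0.81 to -0.22) had an adjusted p of 0.00106 in the exact binomial test, just outside the cutoff. Commd1, an NF-kB and copper regulator classed here as maternal, had 377 and 416 reads (log2 ratio 0.33, interval 0.12 to 0.53).

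Genes with small ratios included some of the well covered ones. Zdbf2, a paternal zinc finger gene, had 1297 and 1090 reads (log2 ratio -0.07, interval -0.18 to 0.05). Copg2, a maternal coat protein of COPI vesicles, had 935 and 806 reads (log2 ratio -0.03, interval -0.17 to 0.11). Plagl1, a paternal zinc finger factor that slows growth, had 1709 and 1660 reads (log2 ratio 0.14, interval 0.05 to 0.24). Blcap, whose copy depends on isoform or tissue, had 104 and 114 reads, and Nnat, the paternal gene in its intron, 18 and 19. Dcn, the matrix protein decorin, classed here as maternal, had 16 and 13 reads. Blcap, Nnat and Dcn did not pass the adjusted p.

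Neighbours were compared within the libraries, since the difference of their log2 ratios does not depend on library scaling. Of 16 neighbouring pairs 10 had enough reads, 6 of opposite copies in at least some tissues and 4 of the same copy. In at least 2 of the 6 the partner of the paternal gene, Ube3a or Blcap, is read from both copies in many cells or isoforms. The other partners were classed as maternal, a class that also holds genes known as maternal mainly in single tissues. Whether these pairs used opposite copies in NE4C was not measured. The interval of the difference left out 0 in 3 of the 6 and in 3 of the 4. Kcnq1ot1 was lower than Phlda2 by a difference of -2.07 (-2.34 to -1.81), Zrsr1 than Commd1 by -0.84 (-1.21 to -0.48) and Mest than Copg2 by -0.36 (-0.53 to -0.18). In each of these 3 the paternal gene had the lower ratio. With Snrpn and Snurf summed, an alternative chosen after seeing the data, the difference from Ube3a was 0.22 (0.07 to 0.38), which makes 4 of the 6, with Snrpn higher in that pair. This did not hold with the length bin medians taken off, also chosen after seeing the data, where Snrpn less Ube3a was -0.13 alone and -0.01 summed. Exons of Zrsr1 and Commd1, and of Mest and Copg2, overlap on opposite strands, and the use of strand in counting is not stated, so reads in the overlap cannot be assigned. In all, 11 genes of the list have an exon overlapped by a gene on the opposite strand and 5 by one on the same strand, among them Igf2 (Igf2as), Cd81 (R74862) and Tssc4 (Trpm5) on the opposite strand. Snrpn alone less Ube3a was 0.10 (-0.05 to 0.26), Sgce less Asb4 0.47 (-0.01 to 0.94) and Nnat less Blcap -0.05 (-1.15 to 1.04).

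Genes of the same copy differed as well. Sgce exceeded Peg10 by 1.33 (1.08 to 1.58) in log2 ratio, where both are paternal and their starts adjoin. Magel2 less Ndn was -1.33 (-1.71 to -0.96), and Ndn less Snrpn -0.37 (-0.62 to -0.13). Usp29 less Peg3 was -0.63 (-1.44 to 0.13). The 6 pairs not compared either had a gene at or near 0 reads or a gene not analysed here.

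**Figure D3:**
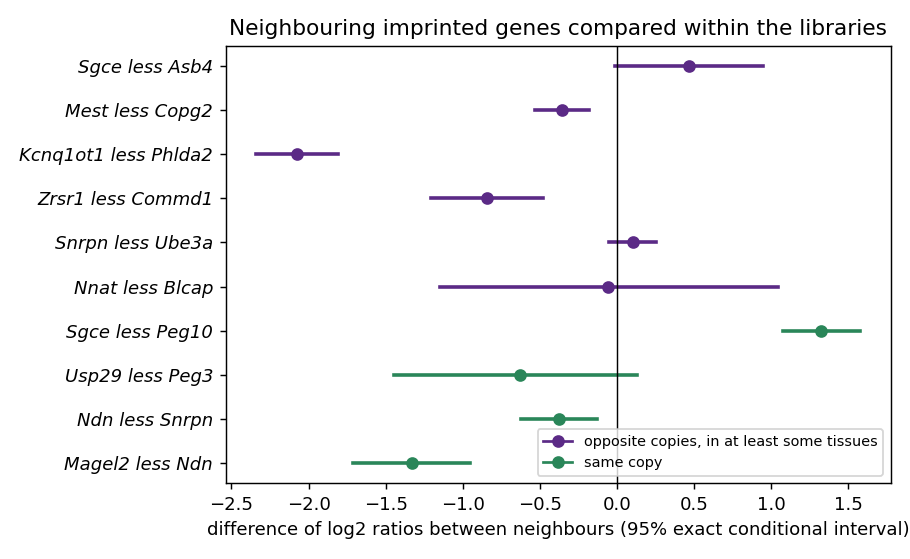
Difference of log2 ratios (HTL treatment over control) between 10 pairs of neighbouring imprinted genes, first gene less second gene, with the 95% exact conditional interval. Purple pairs use opposite parental copies in at least some tissues and green pairs the same copy, and the intervals of 6 pairs lie wholly to one side of 0.

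Ratios in these libraries went with transcript length. Among all genes tested the median log2 ratio was 0.14 in the shortest of 10 length bins and -0.38 in the longest, which began at 6190 bases. The share of genes called lower went from 2.46% to 15.2% between those bins. Of the 9 imprinted genes that fell, 4 (Kcnq1ot1, Ppp1r9a, Peg10 and Usp29) were among the 7 imprinted genes in the longest bin. The other 3 in that bin were Peg3, Zdbf2 and Igf2r, at log2 ratios of -0.72, -0.07 and 0.77. Across the 34 genes the rank correlation (Spearman's rho) of length with the ratio was -0.349, beside -0.18 over all genes tested, given as a description across genes that share the same libraries. With the median of the length bin taken off, 7 imprinted genes were called lower (Peg10 and Usp29 were not) and 1 higher, beside 775 lower and 512 higher over all genes, and the median was -0.05. The difference of Zrsr1 less Commd1 was then -0.50, of Kcnq1ot1 less Phlda2 -1.56 and of Sgce less Peg10 0.999. The medians by copy were then -0.31 for the paternally used and 0.19 for the maternally used genes. The part of length in the results was not tested further.

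**Figure D4:**
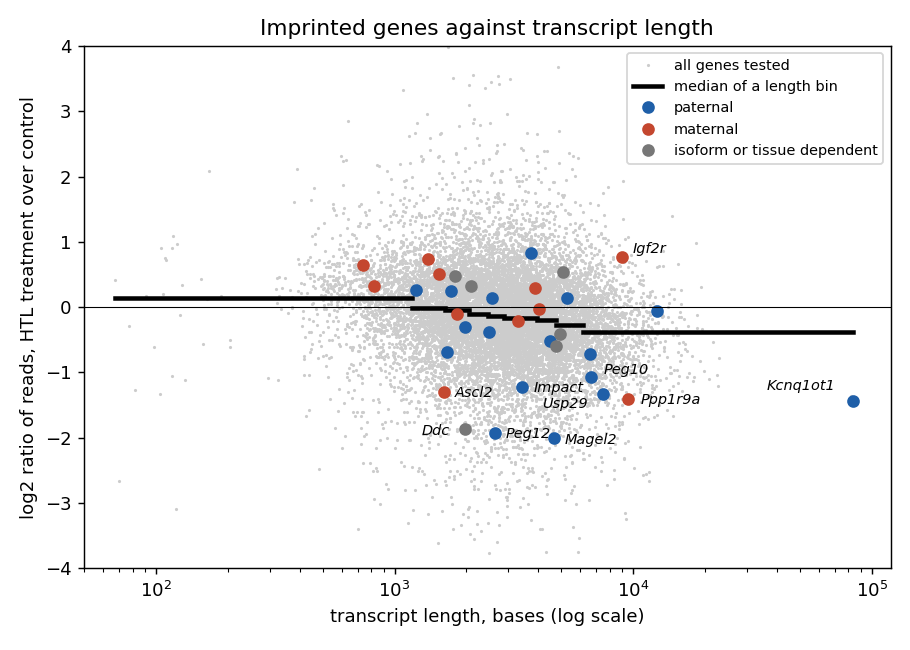
Log2 ratio of reads, HTL treatment over control, against transcript length in bases (log scale) for all 13442 genes tested (grey), with the median of each of 10 length bins as a black line and the 34 imprinted genes coloured by the copy usually expressed. The bin median goes from 0.14 to -0.38, and Magel2, Peg12 and Ddc lie below the line of their own bins, Magel2 by -1.81, Peg12 by -1.80 and Ddc by -1.82. The y axis ends at -4 and 4, which leaves out 59 of the genes tested.

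Promoter windows were used for 36 of the 44 genes, 56 windows in all. They held a median of 15.0 CpG, beside 7.0 in all windows, and 14 of them (25.0%) held TGCCGC on either strand, beside 11.6% of all. Windows on chromosome 18, where Impact lies, were left out for the list but not from all windows. Impact, which fell, is therefore not covered. In the 9 windows used, of 7 genes that fell, the median was 10 CpG and TGCCGC occurred in 0. In the 40 windows of tested genes that were not called, the median was 16.5 CpG and TGCCGC occurred in 11. Several genes have more than 1 window, and overlapping windows are counted separately. DNA methylation was not measured in these libraries.

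The machinery that keeps imprints was set beside the genes. Of 15 keepers, 13 were tested and 0 were called in the exact binomial test, with 6 lower and 2 higher by adjusted p alone and a median of -0.26, beside 24.1% lower and 14.5% higher of all genes tested. Their median length was 4646 bases, and with the length bin medians taken off the median turned to 0.07. The lowest log2 ratio among them was that of Cbx5, a heterochromatin protein, at -0.88 (6510 and 3110 reads). Cbx5, Zfp57, Dnmt1, Hdac1 and Ctcf were chosen after their values were seen. Zfp57 had 468 and 343 reads (log2 ratio -0.26, interval -0.47 to -0.06), short of the adjusted p cutoff. Dnmt1, the maintenance DNA methyltransferase, had 5464 and 3112 reads (log2 ratio -0.63, interval -0.69 to -0.56), passing the adjusted p. The 2 keepers that passed as higher were Hdac1 at 0.60 and Ctcf at 0.27. Of 11 genes tested that set or erase methylation at imprints 1 fell, Tet1, an enzyme that oxidises methylated cytosine, from 2162 to 785 reads (log2 ratio -1.28, -1.40 to -1.16), though not with the length bin median taken off (-0.90). Of 10 tested partners of silencing RNAs 1 fell, Ring1, a polycomb protein, from 66 to 23 reads. Of 27 other imprinted genes tested 2 fell, Casd1 from 106 to 30 reads and Mcts2 from 349 to 149, and 0 rose. These are 0% to 10% of the genes tested in each of the 4 lists, beside 7.98% called lower over all genes. By adjusted p alone, 6 of the 11 setters and erasers were lower and 1 higher, with a median of -0.31. Of the 10 partners 6 were lower and 2 higher, with a median of -0.38, and of the 27 other imprinted genes 7 and 4. Over all genes tested these shares were 24.1% and 14.5%. With the length bin medians taken off, the medians were -0.03 for setters and erasers and -0.10 for partners.

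The IGF and insulin pathway, on which Igf2, Igf2r and Grb10 act, had 18 genes tested, of which 5 (27.8%) fell and 0 rose, beside 7.98% called lower over all genes. Its genes are long, with a median of 4959 bases, and in the 2 longest bins 10.3% and 15.2% of all genes were called lower. Irs1, the docking protein below the insulin and IGF1 receptors, fell from 345 to 61 reads (log2 ratio -2.31, -2.73 to -1.92). Akt1 fell from 353 to 123 reads (-1.33, -1.64 to -1.04) and Pik3ca, a catalytic subunit of phosphoinositide 3-kinase, from 502 to 198 (-1.15, -1.40 to -0.92, and -0.78 with the length bin median taken off, where it was not called). These 3, the largest falls of the list, carry the signal onward from the receptors. By adjusted p alone 10 of the 18 were lower and 3 higher, beside 24.1% and 14.5% of all genes, and the median was -0.39.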

How the data were processed

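RNA of NE4C was sequenced in 1 control and 1 HTL treatment library, grouped by title. Per the labels a TruSeq kit was used, and per the study's methods BGISEQ-500 sequencing and RSEM. The submitters' processing notes name mm9, and the mapper, annotation and strand are not given in the sources used here. The authors deposited estimated counts per gene, FPKM (scaled by the authors to length and library) and transcript length. The deposited log2 ratio, p-value and FDR are the authors' own comparison and were not used. Estimated counts, fractional for 8 of the imprinted genes, were rounded. The quasi-likelihood test of edgeR needs replicates, so reads were tested against library totals with a two-sided exact binomial test and Benjamini-Hochberg adjustment over the 13442 genes whose reads, summed over the libraries, reached 10. The cutoffs (adjusted p 0.001, absolute log2 ratio 1) are those of the study's methods. For ratios 0.5 read was added, and 95% intervals are exact (Clopper-Pearson, conditional for pairs). Reads are not independent molecules, so intervals and floors of 3 reads cover counting error only. In counts simulated with Poisson spread, the test called 200 of 200 genes changed 4-fold and 0 of 13266 unchanged genes, which says nothing of spread between cultures. Exon overlaps came from GENCODE on NCBIM37 and promoter windows from RefSeq on GRCm38.p6.

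Every imprinted gene was named, with those called or with at least 100 reads given in full, and from other lists the genes called. The genes, lists, pairs and copy assignments were chosen with earlier results of these data known. Alternatives used edgeR 4.0.16 and DESeq2 1.42.0 for scaling and assumed spread (Python 3.11.15, scipy 1.17.1, R 4.3.3).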

Additional observations from a re-analysis of the deposited data

How the results depend on the processing

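No paired analysis was possible because the control and the HTL treatment were sequenced as 1 library each, so no replicate could be left out either. The imprinted genes called lower numbered 9 as reported and 6 to 9 with TMM, median of ratios or upper quartile scaling, with no filter, genes averaging 50 reads or more, 5 reads added, FPKM + 1, the length bin median taken off or edgeR's exact test at an assumed coefficient of variation of 0.1 (7 there). At an assumed 0.2 they numbered 1 (Magel2) and at 0.4 they numbered 0, where all genes gave 38 higher and 82 lower, and 1 higher and 5 lower. FPKM + 1 gave 241 higher and 575 lower over all genes. Taking off the length bin median left 1 imprinted gene higher, Igf2r.

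Peg10 was lost with TMM, median of ratios, upper quartile and length bins, Usp29 with those 4 and FPKM + 1, Ascl2 with the 3 scalings, no filter and FPKM + 1, and Kcnq1ot1 with FPKM + 1, where its log2 ratio was -0.91. Log2 ratios that changed sign were those of Copg2 (TMM 0.10, median of ratios 0.11, upper quartile 0.065, length bins 0.17), Zdbf2 (0.065, 0.071, 0.028 and 0.31) and Dcn (TMM 0.015, median of ratios 0.022), none of them past the adjusted p. With FPKM + 1, Kcnq1ot1 less Phlda2 was -1.54 and Usp29 less Peg3 was 0.27. With Snrpn and Snurf summed, chosen after seeing the data, Snrpn less Ube3a was 0.22 with an interval that left out 0. With the length bin medians taken off, also chosen then, it was -0.13, Kcnq1ot1 less Phlda2 -1.56 and Sgce less Peg10 0.999. FPKM + 1 shrinks ratios of genes at low FPKM by construction, and the cause of the other changes was not tested.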
